A study of Mus musculus with 3 samples.

Results

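Of the genes with RNA crosslinked to RBFOX2 in mouse hepatocytes, 7 non-coding genes that carry small nucleolar RNAs (snoRNAs) in their introns are described here, namely Gas5, Snhg1, Snhg3, Snhg5, Snhg6, Snhg8 and Snhg12. They were taken by name, with earlier results of these data known, so their values beside those of other genes are description only. Their clusters were those on the gene's own strand with a midpoint inside the gene as GENCODE M21 annotates it on GRCm38. All 7 held at least 1 cluster, against 10351 of 49342 annotated genes other than small RNA genes (21.0%) and 865 of 10155 long non-coding RNA (lncRNA) genes (8.52%). The 7 hosts held 87 of the 87021 deposited clusters and 5205 of 2850863 counts (Poisson 95% interval 5065 to 5348), or 0.183% of the summed count.

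A snoRNA host gene is transcribed and spliced like a messenger RNA gene, and most of its snoRNAs are cut out of the introns after splicing. Box C/D snoRNAs guide 2′-O-methylation and box H/ACA snoRNAs guide pseudouridylation, mostly of ribosomal RNA. The spliced host RNA often has a start like that of ribosomal protein mRNAs, and nonsense-mediated decay (NMD) removes many such RNAs. RBFOX2 is a splicing factor that binds GCAUG, written GCATG in DNA letters, in introns near the exons it regulates.

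RBFOX2 was immunoprecipitated with the RBM9 antibody (Bethyl Laboratories) from UV-crosslinked primary hepatocytes of C57BL6/J mouse liver in 3 eiCLIP libraries, which form 1 group with no treated, knockout or input group analysed here. eiCLIP records where reverse transcription stops at a crosslinked nucleotide, so each count is taken as 1 cDNA start at a crosslink. The labels give 3 livers and 3 pellets for each sample, whereas the methods describe cultures from 2 mice each. The design text of the series gives the diet of the mice as control. The authors pooled the libraries before they called clusters of at least 10 counts, so no value below has a spread between libraries. All 8 hepatocyte marker genes examined held clusters, with 20 counts in Serpina1c to 8110 in Alb. Of 5 markers each for other liver cells, 1 held a cluster for Kupffer cells (Adgre1, 15 counts), 1 for endothelial cells (Stab2, 12), 1 for stellate cells (Reln, 150) and 0 for cholangiocytes. Intervals cover counting error only. RNA abundance was not measured here, so more host RNA and more contact per RNA molecule cannot be told apart, and neither can more cells and more RNA per cell.

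Gas5 and Snhg1 carried most of the signal. Gas5 (ENSMUSG00000053332.13, chr1:161034422-161038539, plus strand) held 32 clusters with 2705 counts (2604 to 2809), which was 52.0% of the sum over the 7 hosts and placed it at rank 91 of the 10351 genes with a cluster and at rank 11 of 865 lncRNA genes. Snhg1 (ENSMUSG00000108414.1, chr19:8723475-8726443, plus strand) held 23 clusters with 1352 counts (1281 to 1426) at rank 221. Together they made up 77.9% of the count. Both genes pack many short exons and introns into little sequence, with 9 annotated snoRNAs in the 4118 nt of Gas5 and 8 in the 2969 nt of Snhg1.

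Snhg3 followed (ENSMUSG00000085241.7, chr4:132348014-132353686, minus strand) with 12 clusters and 638 counts (589 to 690, rank 567), and then Snhg12 (ENSMUSG00000086290.9, chr4:132308623-132311024, plus strand) with 9 clusters and 249 counts (219.0 to 282, rank 1650). Snhg8 (ENSMUSG00000104960.1, chr3:123507552-123508404, minus strand) had 101 counts in 3 clusters (82.3 to 123), and Snhg6 (ENSMUSG00000098234.7, chr1:9941959-9944118, minus strand) had 100 counts in 4 clusters (81.4 to 122). These 2 genes were equal within counting error, at ranks 3552 and 3576. Snhg5 (ENSMUSG00000097195.9, chr9:88521050-88522929, minus strand) was lowest, with 60 counts in 4 clusters (45.8 to 77.2, rank 4883). The median gene with a cluster held 54 counts and the median lncRNA gene with a cluster held 20 counts, and the interval of Snhg5 spans the first of these. Per kb of span, the levels ran from 657 counts in Gas5 and 455 in Snhg1 to 31.9 in Snhg5, against medians of 2.14 for genes and 0.884 for lncRNA genes with a cluster.

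The clusters of the hosts were narrow and high. Their median width was 7 nt against 18 nt for all other clusters, and 16 of 87 (18.4%) were 1 nt wide against 7.73% elsewhere. The median count was 28 per cluster against 17 elsewhere. A count of 39 or more, which 10.2% of all clusters reached, was found in 33 of the 87 (37.9%), of which 17 were in Gas5, 8 in Snhg1 and 0 in Snhg5. No cluster lay on the opposite strand of any of the 7 genes.

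Each host was divided into exons, annotated snoRNA bodies and the remaining intron. Exons used in retained-intron transcripts only were counted as intron. Over the 7 genes, 911 counts fell in exons, 1333 in snoRNA bodies and 2961 in remaining introns, or 17.5%, 25.6% and 56.9%. With the exons of every annotated transcript counted as exon, 71.3% was exonic and 3.09% intronic, and with any overlap in place of the midpoint 49.3% fell in snoRNA bodies. Per kb, the snoRNA bodies held the most, at 526.5 counts (499 to 555.5) against 285.5 (275 to 296) in remaining introns and 127 (119 to 136) in exons. A single Gas5 cluster weighed on the intron value, which was 181 per kb (173 to 190) without it. Where a base that is intronic in any transcript was called intron, exons held 212 counts per kb (197 to 227) and introns 223 (216 to 231.5). The gap between them thus depended on this rule. The rule does not touch the bodies, so their value of 526.5 could not change. Over the 6 hosts other than Gas5, the bodies held 607 counts per kb (572 to 643.5), while exons (98.6, 91.0 to 107) and introns (96.2, 89.5 to 103) overlapped.

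The balance differed from host to host. In Snhg3 the bodies held 1110 counts per kb, against 75.0 in exons and 27.3 in introns. Snhg6 (506 in the body, 43.2 in introns, 14.0 in exons), Snhg8 (369 in the body, 87.8 in exons, 0 counts in introns) and Snhg12 (364 in bodies, 40.4 in exons) had the same order of body above exon, with intervals that did not overlap. In Snhg1 the classes were closer, at 664 counts per kb in bodies (601.5 to 731), 491 in exons (442 to 543.5) and 358 in introns (329 to 388). Gas5 had another order. Its introns held 852 counts per kb (817 to 888), and 436 (411 to 462) without the highest cluster, against 341 (303 to 382) in exons and 302 (262 to 347) in snoRNA bodies, and the last pair of intervals overlapped. With bases intronic in any transcript called intron, the Gas5 exons held 472 (409 to 542), above its bodies with no overlap, and the Snhg1 exons held 605 (545 to 670.2), overlapping the interval of its bodies. Snhg5 had 46 counts in exons, 14 in introns and 0 in its snoRNA bodies, where 0 counts allow up to 25.6 per kb, although no cluster under 10 counts could be listed. Snhg12 had no remaining intron, because some transcript uses every base outside its snoRNAs as exon. Where a base that is intronic in any transcript was called intron, 1 Snhg12 cluster of 21 counts was intronic.

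**Figure D1:**
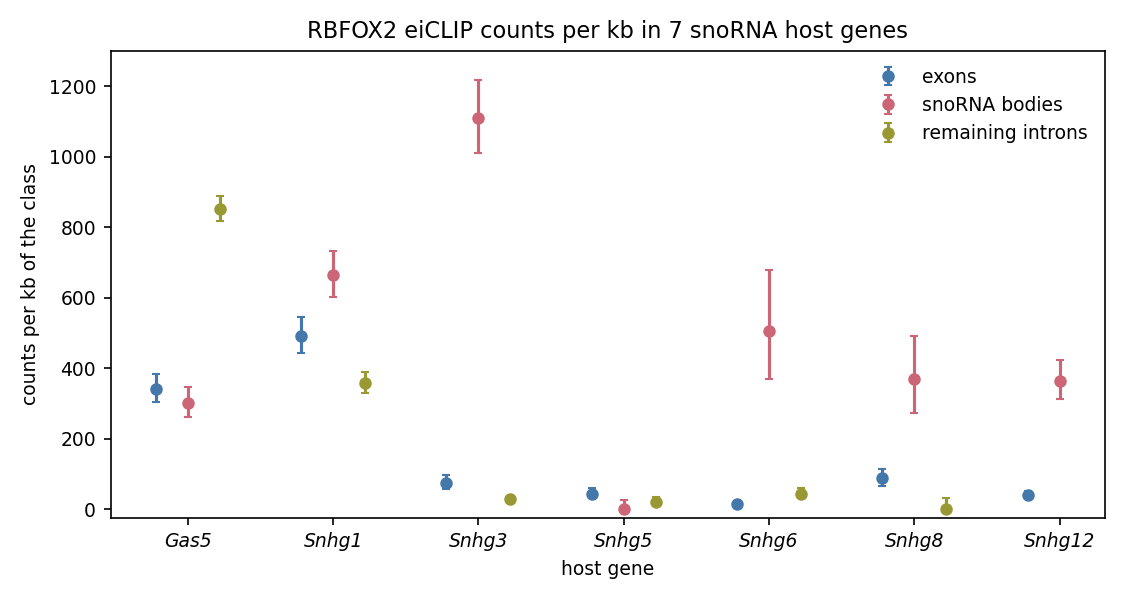
Counts per kb (linear axis) in exons, snoRNA bodies and remaining introns of each host gene, with points for the value and bars for the exact Poisson 95% interval, which covers counting error only. The body value is the highest of its gene in 5 hosts, the intron value is the highest in Gas5 at 852, and Snhg5 has 0 counts in its bodies.

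Of 27 annotated snoRNA bodies in the 7 hosts, 18 held a cluster midpoint (66.7%, Wilson 95% interval 47.8 to 81.4%) and 19 were overlapped by a cluster. The same was true of 161 of 1483 snoRNA bodies in the whole annotation (10.9%), of 129 of 626 inside other protein-coding or lncRNA genes (20.6%), and of 14 of 830 outside such genes (1.69%). Among bodies in other hosts that had a cluster outside the body, the share was 36.8% (120 of 326). All 6 H/ACA bodies held a cluster, with 614 counts or 656 per kb (605 to 710). Of 18 C/D bodies 10 did, with 634 counts or 458 per kb (423 to 496), and 2 of the 3 bodies of no assigned class did. The gap per kb rested on few bodies. Snora73a and Snora73b held 455 of the H/ACA counts, and each other H/ACA body held at most 379.6 per kb. Snord22 alone held 277 of the C/D counts. The H/ACA bodies were also longer, at 129 to 205 nt against 60 to 126 nt, so the shares with a cluster are not like for like. The 9 bodies without a midpoint were Gm22489, Gm22357, Snord78 and Snord47 in Gas5, Gm25855, Gm22744 and Gm23246 in Snhg1, and Snord50a and Snord50b in Snhg5. The Snord50 bodies match at 71 of 72 positions, so that reads from either could be lost to the requirement of unique mapping.

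The 10 bodies with a Snora or Snord name and a cluster midpoint, and Gm23212, the highest by count of the other bodies, are printed from the annotated transcripts (GRCm38, 5′ to 3′), with the cluster bases in capitals, to show which stretch of the snoRNA carried the crosslinks.
Snora73a, chr4:132352775-132352979, minus strand: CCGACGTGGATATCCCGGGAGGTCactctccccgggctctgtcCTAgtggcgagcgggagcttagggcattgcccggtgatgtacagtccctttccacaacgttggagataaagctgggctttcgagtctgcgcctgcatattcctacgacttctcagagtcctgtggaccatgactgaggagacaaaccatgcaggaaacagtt
Snora73b, chr4:132352322-132352526, minus strand: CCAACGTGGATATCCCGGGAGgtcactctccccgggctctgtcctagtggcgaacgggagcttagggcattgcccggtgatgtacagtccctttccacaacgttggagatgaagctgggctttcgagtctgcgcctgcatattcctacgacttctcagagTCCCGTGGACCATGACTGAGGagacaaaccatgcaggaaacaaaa
Snord22, chr19:8725866-8725991, plus strand: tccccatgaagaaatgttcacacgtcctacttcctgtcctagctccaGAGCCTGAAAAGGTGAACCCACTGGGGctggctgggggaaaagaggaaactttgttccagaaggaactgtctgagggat
Snord99, chr4:132310691-132310764, plus strand: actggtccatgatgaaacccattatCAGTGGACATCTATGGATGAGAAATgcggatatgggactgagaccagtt
Snora16a, chr4:132309464-132309600, plus strand: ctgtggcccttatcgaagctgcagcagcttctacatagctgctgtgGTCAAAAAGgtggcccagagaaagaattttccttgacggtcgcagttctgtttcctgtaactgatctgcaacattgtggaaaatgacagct
Snord87, chr1:9942463-9942549, minus strand: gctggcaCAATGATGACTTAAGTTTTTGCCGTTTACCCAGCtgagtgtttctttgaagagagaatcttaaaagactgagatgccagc
Snora24, chr3:123507937-123508066, minus strand: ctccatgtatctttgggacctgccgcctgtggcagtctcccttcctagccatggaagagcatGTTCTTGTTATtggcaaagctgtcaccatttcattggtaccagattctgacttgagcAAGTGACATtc
Snora61, chr4:132310240-132310369, plus strand: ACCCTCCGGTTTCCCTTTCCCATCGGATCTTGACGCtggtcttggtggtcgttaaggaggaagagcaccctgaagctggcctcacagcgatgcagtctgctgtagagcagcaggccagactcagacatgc
Snora44, chr4:132309941-132310069, plus strand: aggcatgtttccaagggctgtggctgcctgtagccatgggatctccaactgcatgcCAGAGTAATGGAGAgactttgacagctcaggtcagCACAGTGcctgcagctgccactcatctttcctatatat
Snord80, chr1:161037601-161037681, plus strand: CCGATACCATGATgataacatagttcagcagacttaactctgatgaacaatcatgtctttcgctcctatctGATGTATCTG
Gm23212, chr1:161036682-161036741, plus strand: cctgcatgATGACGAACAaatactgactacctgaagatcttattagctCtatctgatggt
Snora73a and Snora73b are the H/ACA snoRNAs of Snhg3, also known as U17, which act in ribosomal RNA cleavage. The first cluster of Snora73a (244 counts) began 1 nt upstream of the annotated 5′ end, and that of Snora73b (142 counts) began 2 nt upstream, so both lay over the first bases of the RNA. A second cluster was near the 3′ end of Snora73b (59 counts) and another inside Snora73a (10 counts). These 4 clusters made up 71.3% of the Snhg3 count. The bodies match at 198 of 205 positions (96.6%), so the split between the copies is uncertain. Snhg3 also overlaps Rcc1 on the same strand (chr4:132331919-132353605), and 11 of its 12 clusters with 626 counts lie inside both genes, although 0 lie in an Rcc1 exon.

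Snord22, a C/D snoRNA, held the highest cluster of Snhg1 with 277 counts (245 to 312) at positions 48 to 74 of 126. The stretch covers an exon end that 1 Snhg1 transcript uses inside the snoRNA, at chr19:8725924, so these counts may belong to the spliced RNA or the snoRNA. The annotation cannot tell them apart. The next C/D bodies were far lower, with 71 counts in Gm23212 of Gas5, 60 in Snord99 of Snhg12, 46 in Gm26224 of Gas5 and 44 in Snord87 of Snhg6. In the H/ACA bodies of Snhg12, Snora16a held 52 counts, Snora44 31 in a pair of clusters and Snora61 28, the last beginning 2 nt upstream of the annotated 5′ end. Snora24 of Snhg8 held 35 counts in its middle and 13 at its 3′ end. The other Gas5 bodies held 41 counts in Snord80, 30 in Mir5117, which is annotated as a snoRNA, and 14 in Gm25789.

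**Figure D2:**
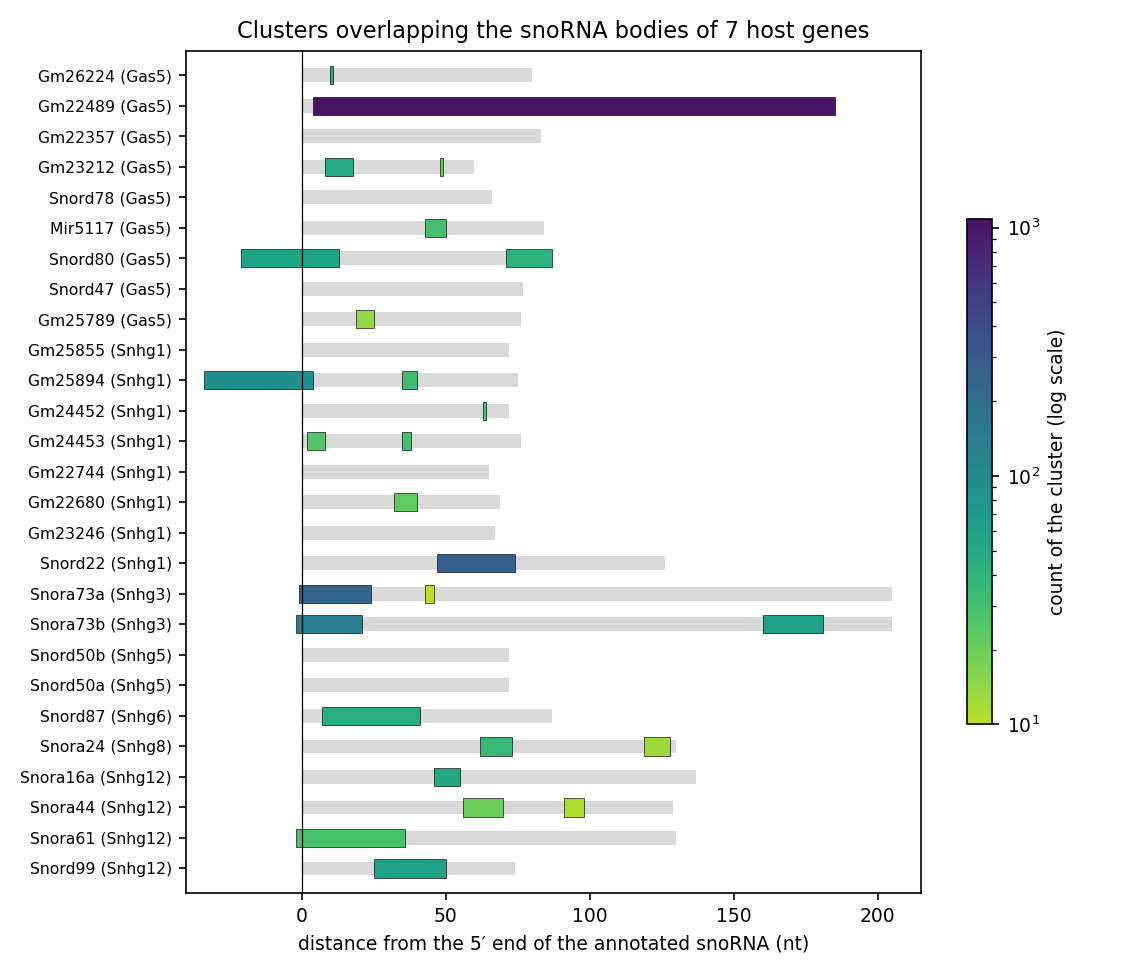
Each row is 1 annotated snoRNA body (grey) with its host in brackets, drawn by distance from its 5′ end in nt, and boxes are overlapping clusters coloured by count on a log scale. The first clusters of Snora73a, Snora73b and Snora61 begin 1 or 2 nt upstream of the 5′ end, the Gas5 cluster of 1081 counts runs from Gm22489 into the next exon, and 8 bodies carry no box.

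Cluster starts at the annotated 5′ end of a body were about as frequent as in other hosts, and 3′ ends were not examined. Of the 27 clusters that overlapped a body, 5 (18.5%) began within 5 nt of its 5′ end, against 25 of 145 (17.2%) in other hosts. Those 5 held 1520 of 2564 counts, because the highest Gas5 cluster and the first Snora73a and Snora73b clusters were among them. Snord and Snora names set the class of a body, and other bodies were called C/D only where both box letters were found. TGATGA within the first 20 nt and CTGA within the last 15 nt were found together in 16 of 18 C/D bodies. For those without a Snord name this was fixed by the rule, so it is no check of their class. Snord78 and Snord22 lacked TGATGA there. ACA at 3 nt from the 3′ end was found in 5 of 6 H/ACA bodies. The next annotated exon start past each body lay 51 to 313 nt downstream of it, with a median of 75 nt. Exons of some transcripts also overlap some bodies, Snord22 among them.

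The highest cluster of all 7 hosts was in Gas5 at chr1:161035854-161036034, with 1081 counts or 39.96% of the gene's count. It is printed on GRCm38, plus strand, with the exon it contains in capitals, because its class depends on the rule.
Gas5 highest cluster, chr1:161035854-161036034, plus strand: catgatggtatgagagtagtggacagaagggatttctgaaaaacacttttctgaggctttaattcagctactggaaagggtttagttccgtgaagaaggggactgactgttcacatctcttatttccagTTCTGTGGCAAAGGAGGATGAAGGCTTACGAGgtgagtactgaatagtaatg
The cluster was 181 nt wide, with 58 nt inside the snoRNA Gm22489, 91 nt of intron and all 32 nt of the exon at chr1:161035983-161036014. Its midpoint was intronic, and it counted as snoRNA body when any overlap was enough. The list gives 1 count for the whole span, so the position of its crosslinks within the span is unknown. It held 0 GCATG, and the nearest upstream copy ended 26 nt before it.

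The other high Gas5 clusters lay in the same central stretch of the gene. They held 243 counts at chr1:161036516-161036552, 188 at chr1:161036343-161036363 and 139 at chr1:161036799-161036819. Further clusters of 78, 75, 74 and 65 counts followed, and 10 of the 32 clusters were 1 nt wide. Of the 13 merged exon blocks of Gas5 outside retained-intron transcripts, 10 were shorter than 60 nt, so that most clusters had an exon, a snoRNA or both close by. The annotation gives 25 Gas5 transcripts, of which 20 are of the retained-intron type, so the intron class also holds bases that some annotated RNAs keep.

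**Figure D3:**
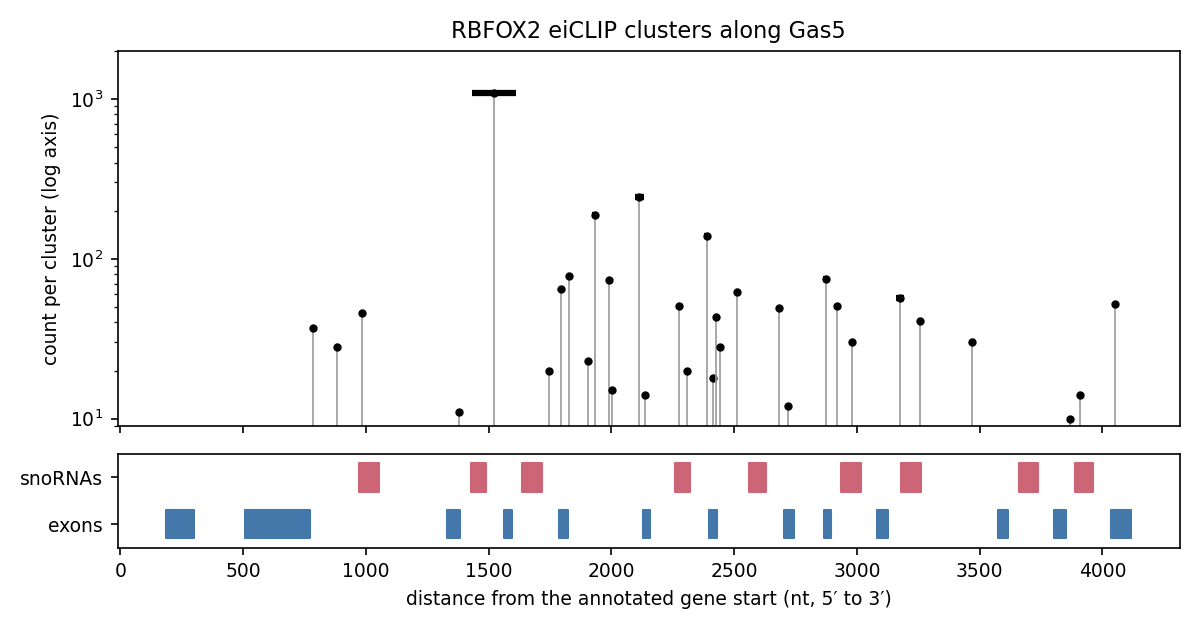
Clusters along Gas5 by distance from the annotated gene start in nt, with the count on a log axis, horizontal bars for cluster width, and merged exons and snoRNA bodies in the lower panel. The cluster of 1081 counts spans from a snoRNA into the next exon, and the clusters of 243, 188 and 139 counts lie downstream of it.

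Many of the host clusters lay at splice sites, where the spliceosome assembles. Of the 87 clusters, 26 (29.9%, 21.3 to 40.2%) lay within 10 nt of an annotated splice site, with 2945 counts or 56.6% of the sum. Among all other clusters in genes 7009 of 73764 did (9.5%), among those in other lncRNA genes 3.91% (3.25 to 4.71%) and among those in other snoRNA hosts 11.9% (10.7 to 13.1%). Bases within 10 nt of a splice site made up 8.41% of the 7 spans, and this share was not computed for the other sets. A cluster counted by its nearest base, so wide clusters meet the rule more easily than single bases. The shares of clusters and of bases are therefore unlike measures. Without the highest Gas5 cluster the share was 29.1% of clusters and 45.2% of the count. At 5 nt the values were 21.8% of clusters against 7.73% elsewhere, and at 20 nt 44.8% against 12.2%. No test was made, since clusters of 1 gene share their RNA and the list has no replicates.

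The clusters fell at both ends of exons. Over the 7 hosts, 16 clusters lay near a donor, the 5′ splice site at the end of an exon (2269 counts), and 11 near an acceptor, the 3′ splice site at its start (1757 counts), with the highest Gas5 cluster in both sets. In Snhg1, 7 clusters with 883 counts were near donors, including the 277 counts over Snord22, and 2 with 85 counts near acceptors, and together these made up 71.6% of its count. In Gas5, 4 were near donors and 6 near acceptors, with 64.7% of the count in the 9 clusters. Snhg3 and Snhg12 had little there, at 13.0% and 10.04% of their counts.

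Those of at least 72 counts that have not been printed already are shown in windows of 81 nt around the splice site (GRCm38, 5′ to 3′), with the cluster in capitals, to show how it sits on the exon border.
Snhg1 donor, 174 counts, chr19:8724443-8724523, plus strand: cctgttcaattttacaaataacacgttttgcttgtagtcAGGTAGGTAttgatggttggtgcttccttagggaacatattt
Snhg1 donor, 140 counts, chr19:8725006-8725086, plus strand: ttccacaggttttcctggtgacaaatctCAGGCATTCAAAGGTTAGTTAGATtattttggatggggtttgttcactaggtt
Snhg1 donor, 115 counts, chr19:8725216-8725296, plus strand: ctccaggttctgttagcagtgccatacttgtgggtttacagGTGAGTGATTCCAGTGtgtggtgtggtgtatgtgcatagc
Snhg1 donor, 108 counts, chr19:8725786-8725866, plus strand: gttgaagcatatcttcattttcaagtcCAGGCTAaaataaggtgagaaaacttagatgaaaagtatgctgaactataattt
Gas5 donor, 78 counts, chr1:161036204-161036284, plus strand: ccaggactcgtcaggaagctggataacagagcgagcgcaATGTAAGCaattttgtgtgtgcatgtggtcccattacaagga
Gas5 acceptor, 243 counts, chr1:161036509-161036589, plus strand: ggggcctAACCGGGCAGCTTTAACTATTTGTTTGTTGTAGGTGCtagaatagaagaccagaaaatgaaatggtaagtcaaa
Gas5 acceptor, 139 counts, chr1:161036780-161036860, plus strand: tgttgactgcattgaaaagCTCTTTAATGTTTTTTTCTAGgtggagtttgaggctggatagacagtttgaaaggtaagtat
Gas5 acceptor, 75 counts, chr1:161037248-161037328, plus strand: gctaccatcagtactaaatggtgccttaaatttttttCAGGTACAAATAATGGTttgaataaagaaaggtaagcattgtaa
Snhg1 acceptor, 72 counts, chr19:8726027-8726107, plus strand: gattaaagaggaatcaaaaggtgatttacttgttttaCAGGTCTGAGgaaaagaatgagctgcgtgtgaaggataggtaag
The 174-count and 140-count clusters of Snhg1 and the 78-count cluster of Gas5 ran across the exon end, the 115-count cluster of Snhg1 began at the first intronic base, and its 108-count cluster ended 7 nt before the exon end. The Gas5 cluster of 243 counts covered the T-rich stretch that precedes an exon and its first bases. The 139-count cluster ended at the last intronic base. The clusters of 75 and 72 counts each began 3 nt before the exon. Spliced RNA and unspliced RNA both contain the exon side of these borders. The intronic bases can come from unspliced RNA, from RNA spliced at another site or from the excised intron.

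**Figure D4:**
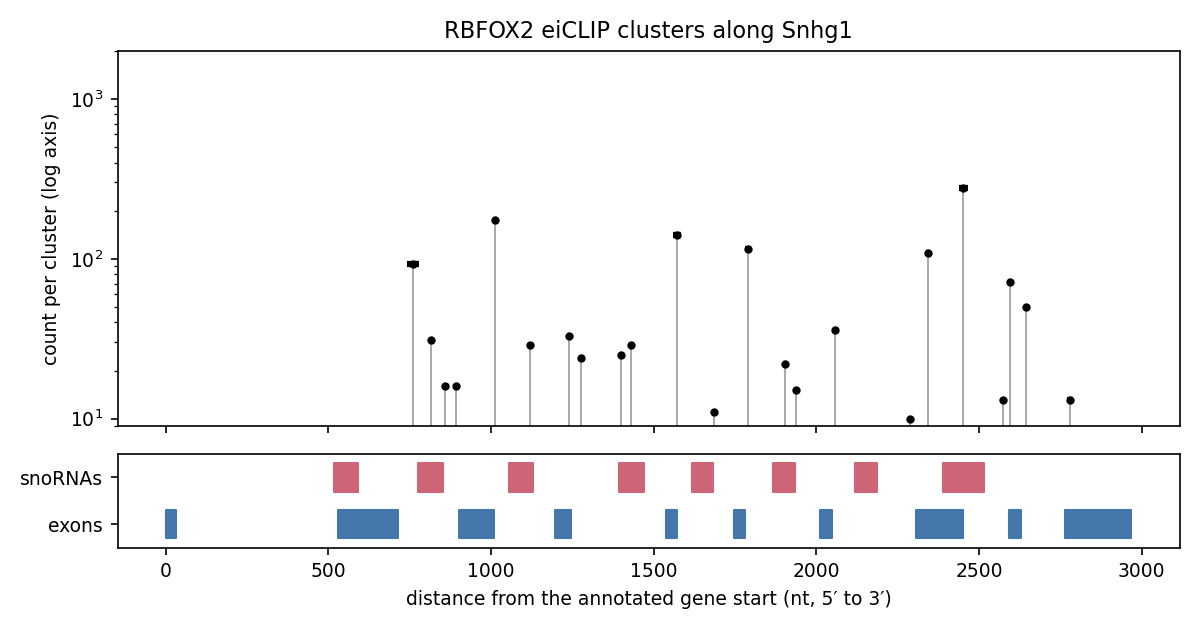
Clusters along Snhg1 by distance from the annotated gene start in nt, with the count on a log axis, horizontal bars for cluster width, and merged exons and snoRNA bodies in the lower panel. The clusters of 174, 140, 115 and 108 counts stand at exon ends, and the cluster of 277 counts stands where an exon end and Snord22 overlap.

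**Figure D5:**
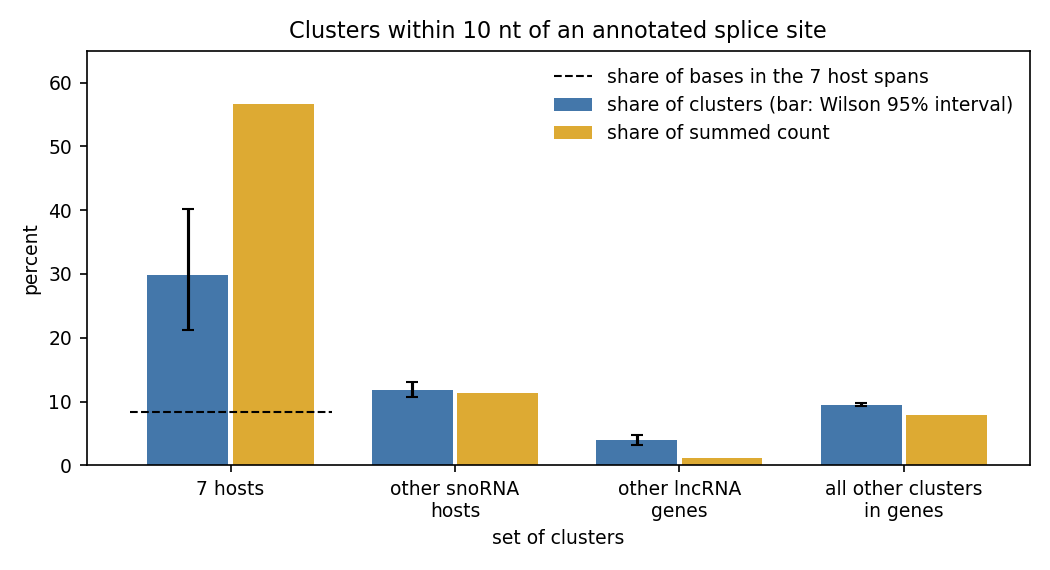
Share of clusters (blue, with the Wilson 95% interval) and of their summed count (yellow) within 10 nt of an annotated splice site, in percent from 0, for the 7 hosts and 3 other sets of clusters. The hosts stand at 29.9% of clusters and 56.6% of counts, above the dashed line at 8.41% for the bases of their spans, while the other sets lie between 1.19% and 11.9%. The line counts single bases, whereas a cluster counts by its nearest base.

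The RBFOX motif was about as frequent around the host clusters as around those other clusters whose sequence was known. GCATG was sought on the sense strand in each cluster with 50 nt added on either side, where the sequence was fully known. Sequence was known for 80 of 87 host clusters but for 19507 of 86861 others, so most of the others could not be compared. GCATG was found in 16 of 80 host windows (20%, 12.7 to 30.1%), against 3927 of 19507 other windows (20.1%). The share was 19.0% in other lncRNA genes and 19.5% in other snoRNA hosts. Of all windows of the same lengths along the host sequence, 16.6% held GCATG. The longer TGCATG, each copy of which also counts as GCATG, was in 12.5% of host windows and 10.3% of the others. The reverse complement CATGC, which shares 4 letters with GCATG, was in 12.5% and 13.2%. Weighted by count, the share with GCATG was 33.6%, above the 23.3% of the other clusters with sequence, and 15.5%, below it, without the highest Gas5 cluster.

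The motif was unevenly spread among the hosts. Of 22 copies in the 14853 nt of known sequence (74.1% of the spans), 10 were in Gas5, 5 in Snhg5, 4 in Snhg12 and 1 each in Snhg1, Snhg6 and Snhg8. In Gas5 it was in 11 of 32 windows (34.4%), close to the 30.3% of all equal windows along the gene. In Snhg12 it was in 3 of 9 windows (33.3%, 12.1 to 64.6%) against 16.8% of all equal windows, and in Snhg8 in 1 of 3 against 16.2%. In Snhg1, which was next to Gas5 by count, it was in 1 of 23 windows (4.35%), against 3.65% of all equal windows. The Snhg3 windows with sequence held it in 0 of 10, which was fixed in advance, as the known 32.3% of its span held 0 copies. By class, it was in 8 of 23 windows of snoRNA body clusters (34.8%, 18.8 to 55.1%), 3 of 23 in exons (13.0%, 4.54 to 32.1%) and 5 of 34 in introns (14.7%, 6.45 to 30.1%), with intervals that overlapped. Neighbouring windows could hold the same copy, as at the cluster pairs in Gm23212 and Snora44, so the intervals given here treat linked windows as independent. None of the 5 copies in Snhg5 lay within 50 nt of a cluster.

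Of the 22 copies, 3 overlapped a cluster and 5, these 3 among them, lay within 10 nt of one. The share of bases that lie in or near clusters was not computed, so these counts cannot be called high or low. Those 5 are printed with 25 nt on each side (GRCm38, 5′ to 3′) and GCATG in capitals, since they are the sites where motif and crosslink came together.
Gas5, before the 51-count cluster, chr1:161036660-161036714, plus strand: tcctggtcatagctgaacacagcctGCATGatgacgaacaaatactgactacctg
Gas5, in the 62-count cluster, chr1:161036902-161036956, plus strand: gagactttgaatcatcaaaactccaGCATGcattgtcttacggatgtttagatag
Gas5, at the 12-count cluster, chr1:161037109-161037163, plus strand: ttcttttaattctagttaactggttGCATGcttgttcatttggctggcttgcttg
Snhg8, at the 35-count cluster, chr3:123507979-123508033, minus strand: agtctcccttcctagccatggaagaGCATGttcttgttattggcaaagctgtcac
Snhg12, before the 20-count cluster, chr4:132309966-132310020, plus strand: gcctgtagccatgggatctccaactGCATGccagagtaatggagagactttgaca
At 2 of these sites the last base of the motif was the first base of the cluster, and at 1 site the motif opened the cluster. At the other two it ended 1 or 2 nt before. The first lies in the snoRNA Gm23212, the Snhg8 site in Snora24 and the Snhg12 site in Snora44. None of the 5 clusters exceeded 62 counts, and all clusters above 100 counts lay further than 10 nt from a GCATG in known sequence. Since just 5 of the 87 clusters lay that near to one, this is no result about the high clusters. Some of the high clusters are in Snhg3, whose known sequence held 0 copies.

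Other snoRNA hosts and the machinery of the pathway were examined as lists. A gene counted as another host where its span held a snoRNA body on the same strand, and the shortest such gene was taken. Whether the snoRNA is made from that gene's transcript was not tested. Among 301 other annotated hosts, 228 held a cluster and 94 held one in a snoRNA body. The highest body counts were in Eif4a2 (4781 counts, 91.0% of the gene's count), Eif4g2 (3845, 77.1%), Tex14 (1324, 80.3%), Rpsa (894, 96.2%) and Slc25a3 (544, 64.7%). By midpoint, all 5 exceeded the 455 counts in the bodies of Snhg3, the highest among the 7 hosts. This order depends on the rule, since the Gas5 cluster of 1081 counts overlaps the body of Gm22489 but has an intronic midpoint. Of 10 further genes named Snhg or known as hosts, 8 held clusters, led by Snhg20 (476 counts) and Snhg17 (397), with Snhg14 and Snhg18 at 0 and a median of 107 counts over the 8. Over the 7 hosts the median was 249. The share of all annotated genes other than small RNA genes that held a cluster was 21.0%.

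Of 15 genes for snoRNP proteins and assembly factors, 13 held clusters (median 73 counts over those 13). Nop56 and Nop58, core proteins of C/D snoRNPs, had 572 and 375 counts, Dkc1, the pseudouridine synthase of H/ACA snoRNPs, had 116, and Fbl, the methyltransferase of C/D snoRNPs, had 54. Snu13 and Pih1d1 had none. Nop56 is itself a snoRNA host. Of 10 genes for NMD factors, 9 held clusters (median 289 counts over those 9), from 20 counts in Upf2 to 1042 in Smg1, the kinase that phosphorylates Upf1, which had 192. Smg8 had 0. Of all annotated genes other than small RNA genes, expressed in hepatocytes or not, 21.0% held a cluster, with a median of 54 counts over those. The lists were not matched to other genes by expression, so their shares are description only. Per kb of span, Nop56 held 117 counts and Smg1 9.27, against 657 in Gas5.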

How the data were processed

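RNA crosslinked to RBFOX2 was measured in 3 eiCLIP libraries of 1 group. Per the labels and methods, the authors trimmed reads with cutadapt, aligned those of at least 18 nt to GRCm38 with STAR 2.4.2a, kept unique alignments, removed PCR duplicates by random barcode, pooled the libraries and grouped crosslink positions with Paraclu. The deposited value of each cluster is a whole-number count, read here as pooled cDNA starts and neither normalised nor corrected for input. Depth per library is not analysed here.

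Clusters were assigned by midpoint and strand to GENCODE M21, in the order snoRNA body, exon, intron. Sequence came from annotated transcripts laid on the genome, and windows not covered were left out. Counts have exact Poisson and shares Wilson 95% intervals. No comparison between samples was possible. The procedures were tested on simulated data. The members and the gene lists were chosen with earlier results of these data known. Named genes were the 7 hosts, their snoRNAs, the 5 other hosts with the highest body counts and lists for further hosts, snoRNP proteins, NMD factors and liver cell markers. Alternatives changed the assignment, exon definition, count filter, motif and window. Python 3.11.15, numpy 2.4.6, pandas 2.3.3, scipy 1.17.1 and matplotlib 3.10.9 were used.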

Additional observations from a re-analysis of the deposited data

How the results depend on the processing

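The summed count over the 7 hosts ranged from 4124 to 5205 over the alternatives run, whereas the split into classes depended on the rules. The top 10% of clusters left 33 of the 87 clusters, 9 bodies with a cluster in place of 18, and 14.7% of the count in exons and 60.7% in introns, with 0 counts in Snhg5, 44 in Snhg6, 53 in Snhg8 and 112 in Snhg12. Clusters at or above the median count gave 15.7% in exons and 20 counts in Snhg5. Any overlap in place of the midpoint gave 27.3% in exons, 49.3% in snoRNA bodies and 23.5% in introns, where the highest Gas5 cluster counted as body and other clusters changed class too. With exons of every transcript, 71.3% was exonic and 3.09% intronic. Exon before snoRNA body gave 20.8% in exons and 22.3% in bodies. With each cluster counted once, exons had 29.9%, bodies 27.6% and introns 42.5%. Bodies widened by 10 nt held 27.5%, and introns 55.0%. The share of windows with GCATG was 9.88% with 20 nt added, 35.9% with 100 nt, 12.5% for TGCATG, 12.5% for CATGC and 33.6% when weighted by count. Of the alternatives chosen after seeing the data, calling a base intron where any transcript does gave 14.97% in exons (212 counts per kb) and 59.4% in introns (223 per kb). Leaving out the highest cluster gave 22.1% in exons, 32.3% in bodies and 45.6% in introns, with 1624 counts in Gas5. Leaving out the clusters inside Rcc1 gave 18.8%, 19.2% and 62.0%, with 12 counts in Snhg3. No paired analysis was possible because the 3 libraries were pooled into 1 list, and for the same reason no replicate could be left out. A removal of clusters with adaptor-like heptamers took away 0 of the 82 that could be examined. Clusters under 10 counts are not listed, and Snhg5, Snhg6 and Snhg8 rest on 3 or 4 clusters each.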
